A study of Mus musculus with 2 samples.

Results

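The genes described here were 9 interferon-induced genes measured in organoids of normal mouse urothelium, the multilayered epithelium that lines the bladder. They were taken by symbol from the 31053 gene identifiers of the count matrices, and all 9 were found: Ifit1, Ifit3, Ifit1bl1, Isg15, Irf7, Bst2, Ifitm1, Ifitm2 and Ifitm3. Organoids had been grown in Matrigel from unsorted urothelial cells of WT C57BL/6 mice aged 8 to 10 weeks, and were profiled by droplet single-cell RNA sequencing of transcript 3′ ends. One library held proliferative organoids (NMU-O-P, called P), kept in complete medium, and 1 held differentiated organoids (NMU-O-D, called D), which had spent a week in complete medium and a further week without WNT3A, RSPO1, EGF, Noggin and LY2157299, a TGF-β receptor inhibitor. With 1 library per condition there was no replicate, so that no p-value was computed, and the intervals below are exact 95% intervals that cover counting error only. Medium and library could not be told apart.

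Interferons are secreted proteins that cells release when they sense viral nucleic acid. Type I and type III interferons bind their receptors and, through JAK kinases, activate transcription factors that bind the interferon-stimulated response element in the promoters of many genes. Epithelia that face the outside, urothelium among them, can also hold some interferon-induced genes at a resting level without infection. The 9 genes fall into 3 roles. Ifit1, Ifit3 and Ifit1bl1 belong to the family of tetratricopeptide repeat proteins, whose best known members bind viral RNA, and Isg15 is a ubiquitin-like modifier. Irf7 is a transcription factor that amplifies interferon production, and Bst2 (tetherin) holds budding virus at the cell surface. Ifitm1, Ifitm2 and Ifitm3 are small membrane proteins that hinder the entry of enveloped viruses.

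By the GENCODE annotation of GRCm38, all 9 are protein-coding and they lie in 4 places. Ifit3 (chr19:34583531-34588731, plus strand), Ifit1bl1 (chr19:34592891-34601956, minus strand) and Ifit1 (chr19:34640871-34650009, plus strand) are neighbours on chromosome 19. Ifitm2 (chr7:140954837-140955987, minus strand), Ifitm1 (chr7:140967221-140969825, plus strand) and Ifitm3 (chr7:141009586-141010770, minus strand) are neighbours on chromosome 7, where Irf7 (chr7:141262706-141266481, minus strand) also lies. Isg15 is at chr4:156199424-156200818 on the minus strand and Bst2 at chr8:71534255-71537456 on the minus strand.

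To show what the promoters of these genes share, the stretches around the core of the interferon-stimulated response element are printed here. The letters GAAANNGAAA, where N is any base, were searched on both strands, so that a match can also read TTTCNNTTTC, in RefSeq windows from 250 bases before to 50 after each gene start (GRCm38.p6). All 9 genes had a window, and Ifit1bl1 had 2. A match was found in 7 of the 9 genes, against 3.44% of all 32851 windows. Capitals mark the matches, which overlap each other in Isg15 and Bst2, and each stretch is given on the strand of its gene.
Ifit1, chr19:34640770-34640828, plus strand: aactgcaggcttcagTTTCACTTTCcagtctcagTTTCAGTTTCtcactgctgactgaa
Ifit3, chr19:34583358-34583431, plus strand: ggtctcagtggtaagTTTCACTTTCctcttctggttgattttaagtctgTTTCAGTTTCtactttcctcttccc
Ifit1bl1, chr19:34602048-34602087, minus strand: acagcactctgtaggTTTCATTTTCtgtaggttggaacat
Isg15, chr4:156200860-156200911, minus strand: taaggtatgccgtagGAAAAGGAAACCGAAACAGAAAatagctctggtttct
Bst2, chr8:71537572-71537617, minus strand: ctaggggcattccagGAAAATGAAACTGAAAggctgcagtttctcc
Ifitm2, chr7:140955983-140956022, minus strand: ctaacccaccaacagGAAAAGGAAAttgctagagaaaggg
Ifitm3, chr7:141010714-141010743, minus strand: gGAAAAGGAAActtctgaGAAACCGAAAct

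Ifit1 and Ifit3 each held 2 matches and Isg15 held 3, all before the gene start. The first match of Ifit1 and that of Ifit3 read the same 10 letters, as did the second match of each. In Ifitm3 both matches lay after the RefSeq start, within the first exon, in the 5′ UTR, and the stretch of Ifitm2 overlaps the annotated first exon by 5 bases. The windows of Irf7 and Ifitm1 held no match, which says only that these letters were not in these 300 bases. A match is a description of sequence, not a binding site.

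Cells were kept when they had more than 800 genes and a mitochondrial share no higher than 12%, after which 6818 cells with 26681469 UMIs remained in P and 4896 cells with 20305621 UMIs in D. A UMI is a molecular tag that counts each captured RNA molecule once, and since each stands for one 3′ end, levels need no division by gene length. Levels are UMIs summed over the kept cells of a library and scaled to a total of 1000000 (CPM). A difference between libraries was called at 2-fold or more among the 10719 genes with at least 100 UMIs over both. The share of UMIs from ribosomal protein genes was 37.5% in P and 21.4% in D, and over the 8939 genes that reached 100 UMIs in both libraries the median log2 ratio of D over P was 0.42. Ratios are therefore given both on the CPM scale and after subtraction of this shift. The 2 libraries shared 6 kept barcode strings, in whose cells the 6 members other than the Ifitm genes had no UMI.

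Epithelial markers were abundant (Krt5 at 3534 CPM in P and 3954 CPM in D), whereas most defining markers of leukocytes were at or near 0. Of 16 leukocyte markers 6 had no UMI in either library (Tyrobp, Coro1a, C1qa, Cd3e, Nkg7 and Siglech), and Ptprc, which encodes CD45, had 1 UMI in P and 2 in D. The list summed to 585 UMIs in P and 554 in D, of which Cd68 gave 545 in P and 132 in D, and Laptm5 gave 7 in P and 400 in D. The list thus stood at 21.9 CPM in P and 27.3 CPM in D, above the level of each of the 6 members other than the Ifitm genes. The 4 erythroid genes had no UMI. Of the 4 endothelial markers Cdh5 and Kdr had none, Pecam1 stood at 60 UMIs (P) and 50 (D), and Egfl7 at 78 and 17. Of the 6 fibroblast markers Col1a2 had none, Col1a1 had none in P and 10 in D, Col3a1 none and 19, Lum 7 and 1, and Pdgfra 6 in each, while Dcn stood at 1.5 CPM in P and 60.8 CPM in D. The part of these transcripts in the levels that follow was not tested.

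The 9 genes covered a wide range of levels, and the 3 Ifitm genes stood above the other 6 in both libraries. Ifitm3 was the most abundant and was higher in P, and Ifitm1 differed the most. Of the 8 members with at least 100 UMIs, 2 were called higher in P (Ifitm1 and Ifitm3), against 4.73% of all genes tested, and 1 was called higher in D (Ifit1bl1), against 13.5% of all genes. The other 5 stayed within 2-fold on the CPM scale. Ifit1bl1 had 41 UMIs in P and 112 in D, so it passed the minimum of 100 only through D, where it was high. Its place in this count is therefore no result about the libraries. The median log2 ratio of the 8 members was −0.34, beside 0.41 over all 10719 genes.

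**Figure D1:**
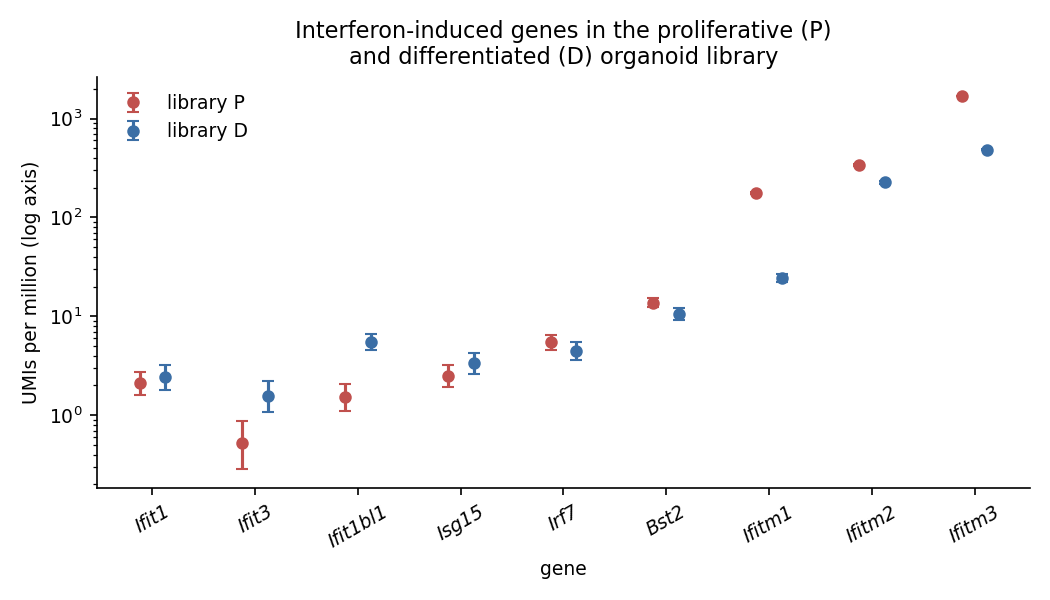
Level of each gene in CPM on a log axis, in the proliferative (P, red) and the differentiated (D, blue) library; points are the summed level of 1 library and bars the exact 95% Poisson interval. Ifitm3 falls from 1694 to 486 CPM and Ifitm1 from 176 to 24.4 CPM between P and D, Ifit1bl1 is higher in D, and the intervals of Ifit1 and Isg15 overlap between the libraries on this scale.

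Ifitm3 had 45188 UMIs in P and 9866 in D, that is 1694 CPM (1678 to 1709) and 486 CPM (476 to 496). Its level was 3.49-fold higher in P, a log2 ratio of −1.80 (−1.83 to −1.77) and of −2.22 after the shift. Ifitm1 had 4704 UMIs in P and 495 in D, or 176 CPM and 24.4 CPM. It was 7.23-fold higher in P, with a log2 ratio of −2.85 (−2.99 to −2.72) and of −3.28 after the shift. Ifitm2, with 9042 and 4607 UMIs, changed less than its neighbours on the chromosome. Its 339 CPM in P and 227 CPM in D gave a log2 ratio of −0.58 (−0.63 to −0.53), and of −1.0 after the shift. Near-identical sequence limits the reading of Ifitm2 most: of the 445 stretches of 56 bases in the last 500 bases of its longest coding transcript, 39.8% also occur in transcripts of other genes, Ifitm3 and pseudogenes among them. That share was 13.7% for Ifit3 (with Ifit3b), 10.3% for Ifitm3, 7.87% for Ifitm1 and 6.07% for Ifit1bl1 (with Ifit1bl2), and 0 for the other 4 genes, and reads that fit 2 genes are lost to a count of unique alignments.

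The genes of the RNA-binding and ubiquitin-like group were scarce. Ifit1 had 57 UMIs in P and 49 in D, or 2.14 CPM and 2.41 CPM, and its log2 ratio of 0.18 (−0.41 to 0.75) turned to −0.25 after the shift. Isg15 had 67 and 68 UMIs, or 2.51 CPM and 3.35 CPM, with a log2 ratio of 0.42 (−0.09 to 0.92) that was −0.01 after the shift. A difference was not detectable at this depth for either gene. Ifit1bl1 was the exception of the group. It had 41 UMIs in P and 112 in D, or 1.54 CPM (1.10 to 2.08) and 5.52 CPM (4.54 to 6.64), so that its level was 3.59-fold higher in D (log2 ratio 1.84, 1.32 to 2.40). After the shift 1.42 remained. Ifit3 had 14 UMIs in P and 32 in D, too few in sum for a call, and its level was 3.00-fold higher in D. In D 1 cell held 15 of the 32 UMIs, and in P 1 cell held 6 of the 14. Without that D cell, and without the P cell richest in the scarce genes, the ratio was 1.60-fold, with a log2 interval from −0.43 to 1.81. The P cell left out held 0 Ifit3 UMIs, so this removal was one-sided for Ifit3. A ratio without the top Ifit3 cell of both libraries was not computed.

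Irf7 and Bst2 lay between these groups. Irf7 had 146 UMIs in P and 91 in D, or 5.47 CPM and 4.48 CPM, and its log2 ratio was −0.29 (−0.68 to 0.10) on the CPM scale and −0.71 (−1.10 to −0.32) after the shift. Bst2 had 367 and 214 UMIs, or 13.8 CPM and 10.5 CPM, with a log2 ratio of −0.38 (−0.63 to −0.14) and of −0.81 after the shift. Both were below 2-fold under either scaling.

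The breadth of detection separated the same groups. To compare cells of unequal depth, each cell was thinned to 2100 UMIs, which left 6638 cells in P and 4417 in D and took out 180 and 479 shallower ones. Ifitm3 was then found in 90.4% of P cells (89.7 to 91.1) and in 52.0% of D cells (50.5 to 53.5). Without thinning these shares were 95.7% and 67.3%. Ifitm2 was found in 48.6% and 38.0% of thinned cells and Ifitm1 in 19.1% and 4.73%. Bst2 was found in 2.83% and 2.20% and Irf7 in 0.949% and 0.928%, and each of the remaining 4 genes in under 1% of cells of either library. The median thinned cell held 3 Ifitm3 UMIs in P and 1 in D, and the 90th percentile was 7 and 3 UMIs. The lower level of Ifitm3 in D was thus seen across the distribution of cells, while Ifitm1 was carried by a minority of cells even in P, where 1 cell held up to 18 of its UMIs after thinning.

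**Figure D2:**
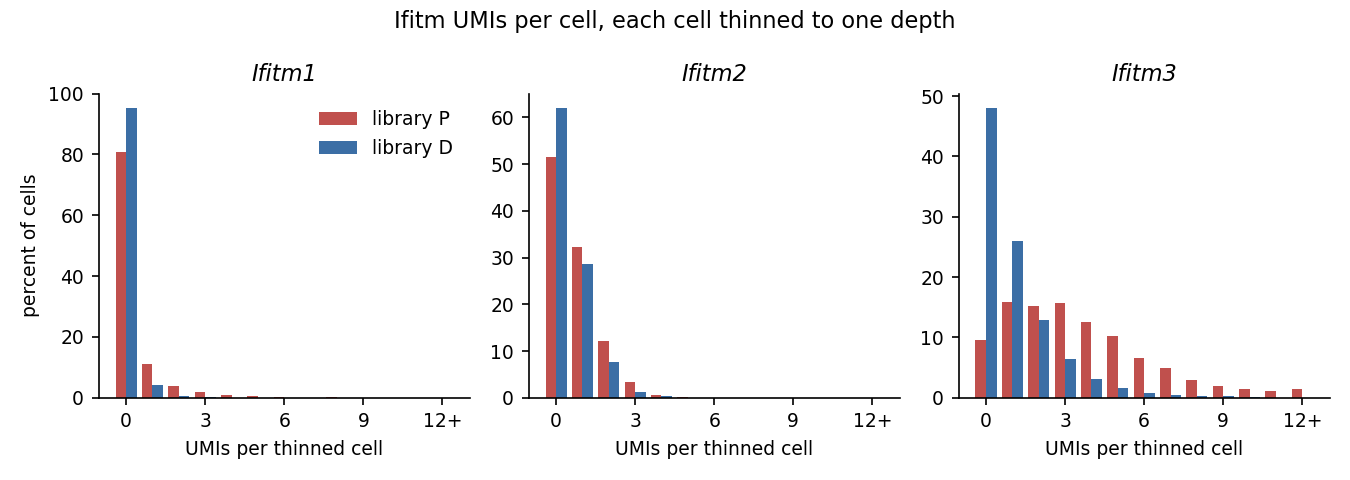
Percent of cells (vertical axis) by the number of Ifitm1, Ifitm2 or Ifitm3 UMIs (horizontal axis) after each cell was thinned to 2100 UMIs, in P (red, 6638 cells) and D (blue, 4417 cells); the last bar pools cells with 12 or more. For Ifitm3, 9.60% of P cells and 48.0% of D cells held no UMI.

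Cells were clustered in each library separately, with the settings of the study's methods, into 4 clusters in P and 3 in D, which are named here by a leading gene. In P these were a Ctla2a-led cluster of 2573 cells, a Sprr3-led cluster of 2540, a Fmo2-led cluster of 1349 and a Ccna2-led cluster of 356. The Ctla2a-led cluster had 5 of 7 basal markers raised. The Sprr3-led cluster had 9 of 9 intermediate and 3 of 3 measured luminal markers raised. The Ccna2-led cluster had 12 of 12 proliferation and 6 of 7 basal markers raised. In D these were a Reg1-led cluster of 2864 cells, an Acta2-led cluster of 1318 cells and a luminal-like cluster of 714 cells. The Acta2-led cluster had 6 of 7 basal and 11 of 11 measured proliferation markers raised. The luminal-like cluster had 5 of 5 measured luminal markers raised and Upk3a and Upk3b among its leading genes. Median depth ran from 2680 UMIs per cell (Acta2-led) to 4248 (Sprr3-led). The clustering used some of the members (6 in P and 7 in D were among its variable genes), Ifitm1 was among the 10 leading genes of the Fmo2-led cluster and Ifit1bl1 among those of the luminal-like cluster, so that levels by cluster are a description.

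In D the Ifitm genes and the scarce genes peaked in different clusters. At this resolution the Ifitm genes were highest in the Fmo2-led cluster of P and in the Acta2-led cluster of D and lowest of all in the luminal-like cluster. Ifit1, Ifit3, Ifit1bl1 and Isg15 were highest in the Sprr3-led cluster of P and in the luminal-like cluster of D. Of the members with at least 100 UMIs in the library, the highest cluster stood at least 2-fold above the lowest for 1 of 5 in P (Ifitm1), beside 32.0% of all genes, and for 4 of 5 in D (Ifit1bl1, Bst2, Ifitm1 and Ifitm3), beside 21% of all genes. The fifth member in D, Ifitm2, stood just inside 2-fold. Ifit1bl1 had 98 of its 112 D UMIs in the luminal-like cluster, so it passed the minimum of 100 only through the cluster where it was high. Its place in this count is therefore no result about the clusters. Without the cell of each library richest in the scarce genes, the count in D was 3.

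**Figure D3:**
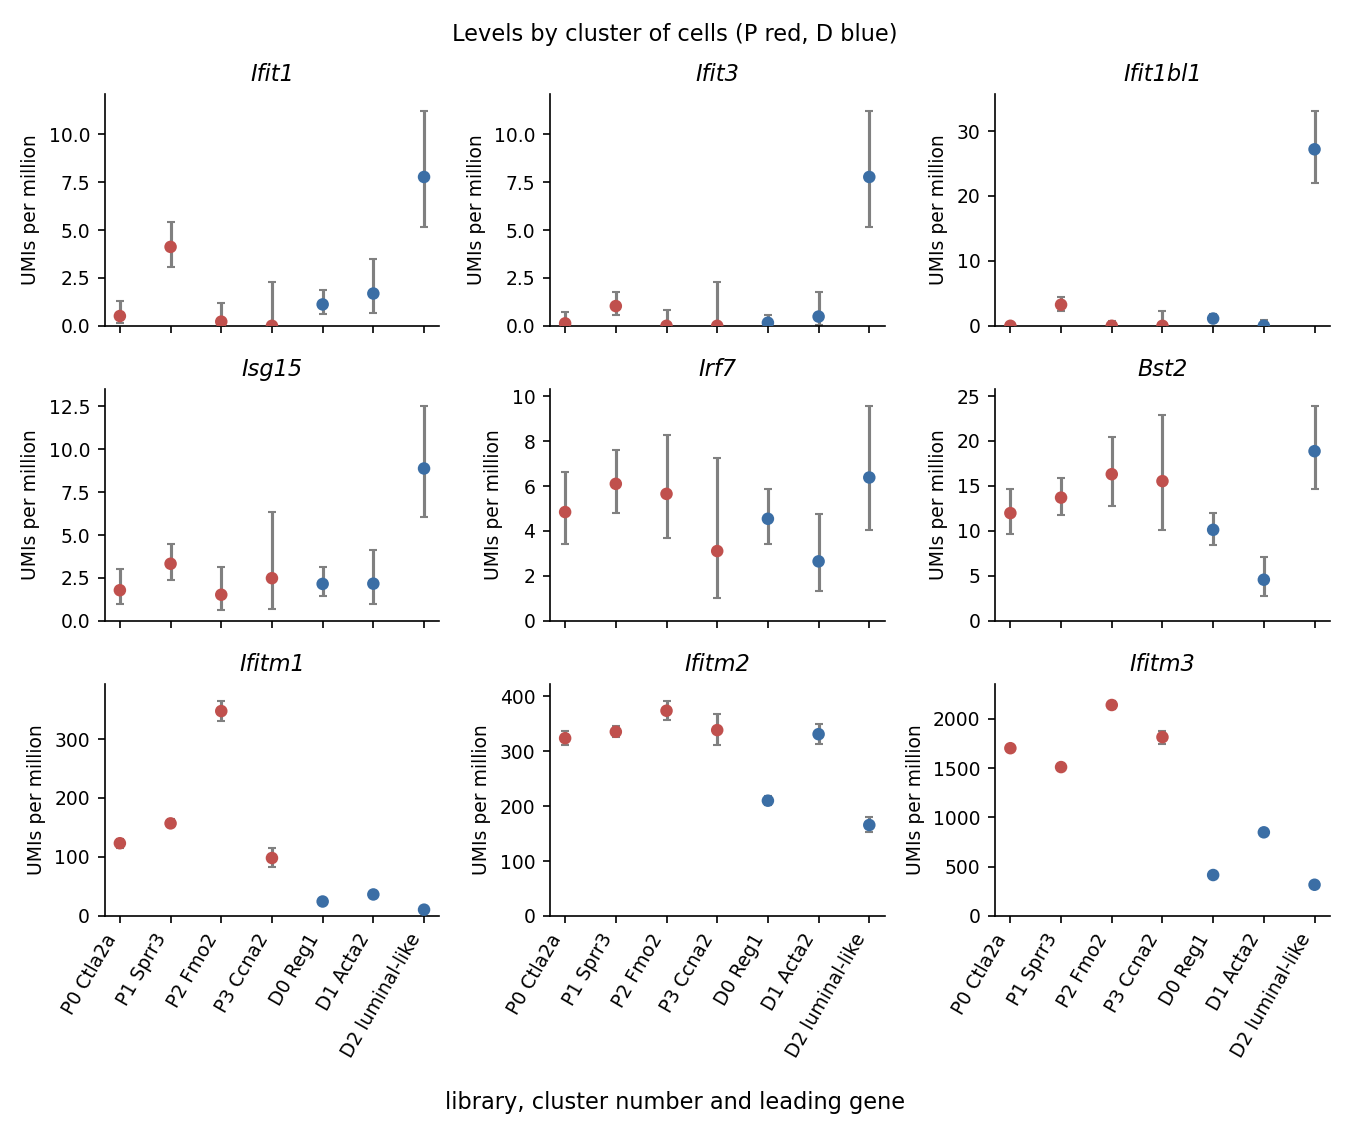
Level of each gene in CPM (vertical axes start at 0 and differ between panels) in the 4 clusters of P (red) and the 3 clusters of D (blue); bars are exact 95% Poisson intervals. For Ifitm1 and Ifitm3 each P cluster lies above each D cluster at this resolution. Ifit1, Ifit3, Ifit1bl1 and Isg15 peak in the luminal-like cluster of D and, within P, in the Sprr3-led cluster.

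Ifitm3 stood at 2140 CPM in the Fmo2-led, 1814 in the Ccna2-led, 1702 in the Ctla2a-led and 1510 in the Sprr3-led cluster of P. In D it stood at 848 CPM in the Acta2-led, 415 in the Reg1-led and 316 in the luminal-like cluster. No neighbouring intervals overlapped in either library, and at this resolution the lowest P cluster was 1.78-fold above the highest D cluster. Ifitm1 ran from 347 CPM in the Fmo2-led cluster through 157 and 123 CPM in the Sprr3-led and Ctla2a-led clusters to 98.2 CPM in the Ccna2-led cluster. In D it ran from 36.3 CPM in the Acta2-led through 24.4 in the Reg1-led to 10.5 in the luminal-like cluster, so that the lowest P cluster was 2.70-fold above the highest D cluster. Ifitm2 did not separate the libraries in this way, since its 331 CPM (314 to 349) in the Acta2-led cluster overlapped the 324 CPM (311 to 337) of the Ctla2a-led cluster. Within P its 4 clusters lay between 324 and 374 CPM, and each pair of neighbours in that order overlapped.

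Ifit1bl1, Ifit1 and Ifit3 were concentrated in few places, and Isg15 less so. Ifit1bl1 had all 41 of its P UMIs in the Sprr3-led cluster (3.25 CPM), and 98 of its 112 D UMIs in the luminal-like cluster, at 27.2 CPM (22.1 to 33.1). The Acta2-led cluster held none, so that the luminal-like level was at least 37.7-fold higher when set against 3 counts in that cluster. Ifit1 stood at 4.12 CPM in the Sprr3-led cluster, with 52 of its 57 UMIs there, and at 7.77 CPM (5.16 to 11.2) in the luminal-like cluster against 1.12 in the Reg1-led and 1.68 in the Acta2-led cluster, 2 values whose intervals overlapped. Isg15 was 8.88 CPM (6.07 to 12.5) in the luminal-like cluster and 2.15 and 2.17 CPM in the Reg1-led and Acta2-led clusters. The D cell richest in Ifit3 held 12 of its 32 luminal-like UMIs and 8 of the 28 of Ifit1. Without that cell both genes stood at 5.56 CPM there. Among thinned cells Isg15 was found in 0.717% (0.233 to 1.67) of the luminal-like cluster. In the Reg1-led and Acta2-led clusters Isg15 was found in 0.486% and 0.384%, with overlapping intervals. In P its neighbouring clusters overlapped, between 3.33 CPM in the Sprr3-led and 1.52 CPM in the Fmo2-led cluster. Ifit3 had 28 of its 32 D UMIs in the luminal-like cluster, 15 of them in the cell named above.

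Bst2 in D had the same order of clusters as Ifit1bl1: it stood at 18.9 CPM (14.6 to 23.9) in the luminal-like, 10.1 in the Reg1-led and 4.57 (2.75 to 7.14) in the Acta2-led cluster, with no neighbouring intervals overlapping. In P the levels of Bst2 lay between 12 and 16.3 CPM with overlapping neighbours. Irf7 was highest in the luminal-like cluster of D (6.38 CPM) and in the Sprr3-led cluster of P (6.10 CPM), but neighbouring intervals overlapped in both libraries.

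The cluster pattern was also seen when the interferon genes were kept out of the clustering. The cluster richest in Upk1a in D then held 847 cells with 20.8 CPM of Ifit1bl1, and the 2 others held 0.628 CPM and none. In P the cluster with all Ifit1bl1 UMIs held 2544 cells at 3.24 CPM, and Ifitm1 reached 333 CPM in its highest cluster. At a finer resolution, which gave 6 clusters in P, the Ctla2a-led and the Sprr3-led clusters each split into cells with more and with less Ifitm3, and the highest cluster of the Ifitm genes changed. Ifitm1 was then highest in a Cyp2f2-led cluster of P (281 CPM, beside 223 in the Fmo2-led one) and in a Krt1-led cluster of D (45.2 CPM, 37.2 to 54.3, beside 35.9, 30.3 to 42.3, in the Acta2-led one). Ifitm2 stood at 378 CPM in the Cyp2f2-led and 371 CPM in the Fmo2-led cluster, with overlapping intervals, and Ifitm3 at 2096 CPM in a Mgp-led and 1984 CPM in the Fmo2-led cluster. A subcluster of 787 cells, led by Ctla2a and Nbl1 and including the hypoxia-induced Adm and Ndrg1 among its leading genes, stood at 902 CPM of Ifitm3, beside 2096 CPM in the Mgp-led subcluster of 1780 cells. Its Ifitm3 interval (866 to 939 CPM) overlapped that of the Acta2-led cluster of D at the finer resolution (843 CPM, 815 to 871). A Sprr3-led subcluster of 1349 cells stood at 1071 CPM beside 2090 CPM in the Cyp2f2-led one of 1347 cells. The Sprr3-led subcluster held all 41 Ifit1bl1 UMIs and 43 of the 57 Ifit1 UMIs of P, and its Ifitm3 level was the second lowest of the 6. The median mitochondrial share was 2.59% in the Ctla2a and Nbl1 subcluster and between 5.40% and 6.98% in the other 5, and the part of mitochondrial share in the level of Ifitm3 was not tested.

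In single cells, a small number of cells carried many UMIs of several of these genes. Any UMI of Ifit1, Ifit3, Ifit1bl1 or Isg15 was found in 104 of the 6818 cells of P, 73 of them in the Sprr3-led cluster, and in 150 of the 4896 cells of D, 95 of them in the luminal-like cluster. Of these, 4 cells in P and 6 in D held UMIs of at least 3 of the 4 genes, and those few cells carried 28.5% of the UMIs of the 4 genes in P and 34.1% in D. The 4 cells of P all lay in the Sprr3-led cluster, and 4 of the 6 cells of D in the luminal-like cluster.

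**Figure D4:**
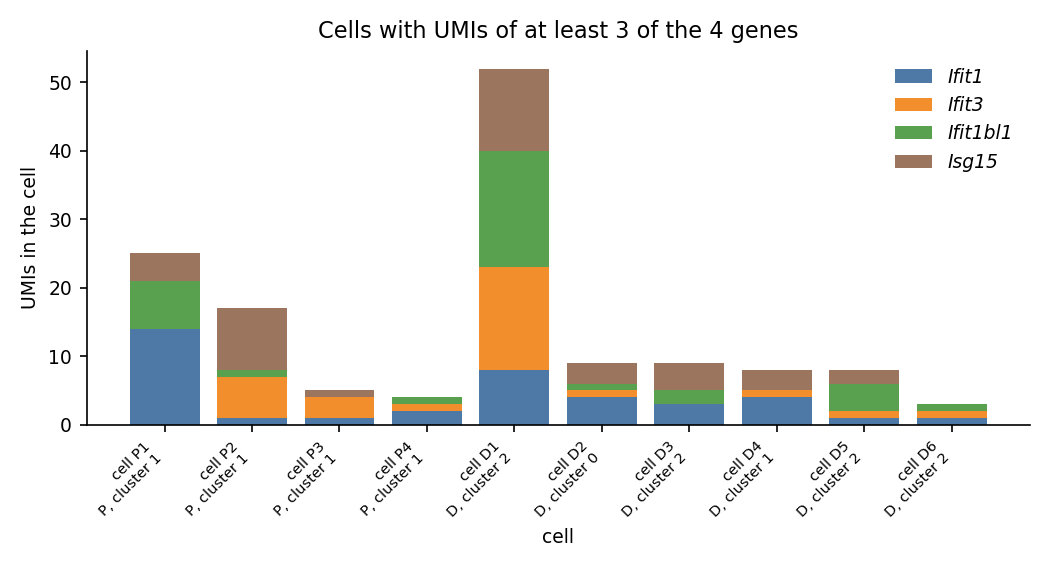
UMIs of Ifit1, Ifit3, Ifit1bl1 and Isg15 (stacked bars, vertical axis) in each of the 10 cells, 4 of P and 6 of D, in which at least 3 of these genes were found; labels give the library and the cluster number (1 in P is Sprr3-led; 0, 1 and 2 in D are Reg1-led, Acta2-led and luminal-like). One luminal-like cell of D holds 52 UMIs, and the other 9 cells hold between 3 and 25.

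The cell with the most, a luminal-like cell of D with 6889 UMIs in all, held 8 UMIs of Ifit1, 15 of Ifit3, 17 of Ifit1bl1 and 12 of Isg15. It also held 9 UMIs of Ifit3b, 9 of the chemokine Cxcl10, 6 of Oasl2, 4 of Rsad2 and 4 of Bst2, genes named after their values were seen. Of 31 further interferon-induced effectors 20 were found in this cell, whereas the median cell of either library held 1. The 99th percentile was 4 in P and 6 in D. In P the richest cell, with 3988 UMIs, held 14 UMIs of Ifit1, 7 of Ifit1bl1 and 4 of Isg15, and 8 of the 31 effectors. The next, with 13625 UMIs, held 9 of Isg15 and 6 of Ifit3, and 12 of the effectors. The most effectors in any cell of P was 13. These cells were not thinned and were deeper than the median cell, which held 3405.5 UMIs in P and 3227.5 in D. Leukocyte markers were nearly absent from these 10 cells: the richest cell of D and the second of P each held 1 UMI of Cd68, and the other 8 held none. Of the 10 cells 2 were among those with the highest 5% of doublet scores. Ifitm3 was found in all 10, with between 1 and 42 UMIs and 15 in the richest cell of D, while Ifitm1 was found in 3 of them.

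Which genes were found together was counted in thinned cells. Among the 22 thinned D cells with an Isg15 UMI, 3 held Ifit1, or 13.6% (2.91 to 34.9), against 0.341% of the 4395 cells without one. In P the shares were 2 of 29 cells, or 6.90% (0.846 to 22.8), against 0.242%. Without the richest cell of each library the shares were 3.57% in P and 9.52% in D, and with cells thinned to 3000 UMIs they were 11.1% and 20.8%, all inside the intervals given. Among the 18 D cells with Ifit1, 4 held Ifit3 (22.2%, 6.41 to 47.6), against 0.0227% of the rest. Bst2 was found in 4 of the 22 Isg15-positive D cells (18.2%, 5.19 to 40.3) and in 5 of the 29 in P (17.2%, 5.85 to 35.8), against 2.12% and 2.77% of the others. None of the 209 D cells with Ifitm1 held a UMI of Ifit1, Ifit3, Ifit1bl1 or Isg15, with an interval up to 1.75% for each. In the 4208 D cells without Ifitm1 the shares were 0.428%, 0.119%, 0.951% and 0.523%, all within that interval, so that a difference was not detectable at this depth. Ifitm3 was found in 71.8% (65.1 to 77.8) of the D cells with Ifitm1 and in 51.0% of the others.

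Genes whose pattern over thinned cells was most like that of each member were ranked by Pearson's r of log counts among genes with at least 100 UMIs in the library. These values describe cells of 1 library that share its preparation. Members with fewer UMIs were left out of this ranking as partners, so pairs of members are given first. Ifit1 had r = 0.46 with Ifit3 in D, and in P it had r = 0.31 with Ifit1bl1, 0.25 with Isg15 and 0.20 with Ifit3. Ifit3 and Isg15 had r = 0.22 in D. These pairs rest on few positive cells. In D, Ifitm3 was most like the basal keratins Krt14 (r = 0.33) and Krt5 (r = 0.22) and Sfn (r = 0.21) over 4417 cells, and within the 3 clusters r with Krt14 was between 0.09 and 0.23. In P, Ifitm3 was most like the mitochondrial transcripts mt-Atp6 (r = 0.40), mt-Co3 (r = 0.38) and mt-Cytb (r = 0.34) over 6638 cells, and r with mt-Atp6 was 0.48 within the Ctla2a-led and 0.15 within the Ccna2-led cluster. In D, r of Ifitm3 with mt-Atp6 was −0.19, and in P that with Krt14 was −0.00013. Ifitm1 in P was most like Ifitm3 (r = 0.22). Ifit3 in D had r = 0.28 with Ifit1bl1, but of the 5 thinned D cells with Ifit3 only 1 held Ifit1bl1.

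Most other genes of the interferon pathway lists were found in both libraries, whereas most of the ligands were found in neither. Of 12 interferon genes, 9 had no UMI in either library, among them Ifnb1 and the measured Ifna, Ifnk and Ifnl genes. A count of 0 allows up to 0.112 CPM in P and 0.148 CPM in D. Ifne, an epithelial type I interferon, had 31 UMIs in P (1.16 CPM) and 12 in D (0.591 CPM), Ifnz had 1 and 3, and Ifng had 2 and none. All 6 receptor genes were measured and none passed 2-fold. Ifnar1 and Ifnar2, the subunits of the type I receptor, stood at 8.73 and 16.3 CPM in P and at 13.9 and 13.8 CPM in D. Ifnlr1, the specific subunit of the type III receptor, stood at 2.77 and 5.07 CPM.

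Of the 12 signalling genes 1 was called higher in P (8.33%, beside 4.73% of all genes). This was Socs3, a feedback inhibitor of JAK kinases, which stood at 9.71 CPM in P and 4.04 CPM in D, a log2 ratio of −1.27. Jak1 (0.80), Tyk2 (0.68), Irf3 (0.61), Stat2 (0.44), Ptpn2 (0.40) and Jak2 (0.31) had log2 ratios above 0 and within 2-fold, and Irf1 (−0.23), Irf9 (−0.39), Usp18 (−0.45) and Socs1 (−0.75) below 0. Of 10 genes of nucleic acid sensing with at least 100 UMIs, 1 was called higher in P (10%, beside 4.73% of all genes). It was Mb21d1, which encodes the DNA sensor cGAS, with a log2 ratio of −1.23 (−1.81 to −0.68). Its partner Tmem173, which encodes STING, had −0.91. Tlr3, a sensor of double-stranded RNA, had 0.93, and Mavs, the adaptor of the cytosolic RNA sensors, 0.64.

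Of the 31 other interferon-induced effectors in the matrices, 17 had at least 100 UMIs. Of these 3 were called higher in D (17.6%, beside 13.5% of all genes) and 1 higher in P (5.88%, beside 4.73%). Mx1 stood at 1.5 CPM in P and 12.2 CPM in D, a log2 ratio of 3.03 (2.54 to 3.55). Its highest cluster was not the luminal-like one (8.05 CPM) but the Reg1-led one (15.9 CPM). Slfn2, a Schlafen family gene, had 17.9 and 59.2 CPM (log2 ratio 1.73), with 32.2 CPM in the Sprr3-led cluster, the highest of P, and 143 CPM in the luminal-like cluster, the highest of D, as for Ifit1 and Ifit1bl1. Adar, an RNA editing enzyme, had a log2 ratio of 1.22, and Ifi204, which encodes a DNA-binding protein, of −1.28. Chosen after the values were seen, Cxcl10 had no UMI in P and 18 in 8 cells of D, at least 7.88-fold higher when set against 3 counts in P, with 9 of the 18 in the richest cell. Oas3 had 20 UMIs in P and none in D, at least 5.07-fold lower in D by the same measure.

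Of 14 interferon gamma-induced GTPases and chemokines, only Irgm1 (log2 ratio 0.92), Gbp2 (0.45) and Gbp7 (0.09) had at least 100 UMIs, and none of these 3 was called. Among the 4 other Ifitm genes, Ifitm10 alone had at least 100 UMIs and was called higher in P, at 23.2 CPM against 10.7 CPM (log2 ratio −1.11). In D it was highest in the Acta2-led cluster (32.0 CPM) and lowest in the luminal-like cluster (1.11 CPM), the order of the 3 Ifitm members. Over all these lists 49 genes were tested, 4 were called higher in D (8.16%) and 4 higher in P (8.16%), and their median log2 ratio was 0.40, beside 0.41 over all genes. After the shift 2 of the 49 were 2-fold higher in D and 8 in P, beside 5.64% and 8.65% of all genes.

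**Figure D5:**
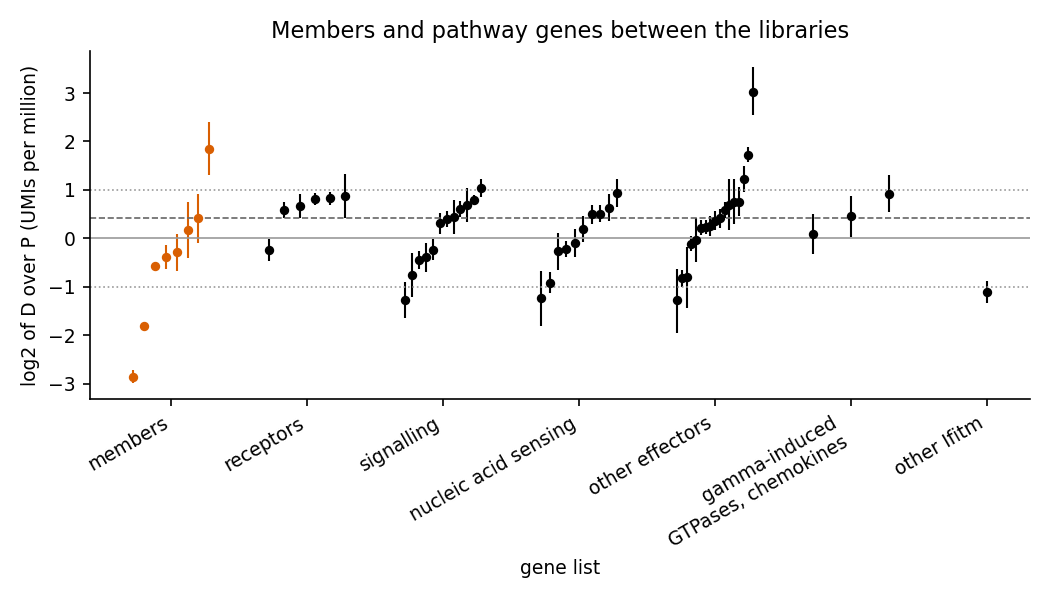
Log2 ratio of D over P (vertical axis) for the 8 members (orange) and the pathway genes (black) with at least 100 UMIs over both libraries, by gene list; bars are exact 95% conditional binomial intervals, the dotted lines mark 2-fold and the dashed line the shift of 0.42. Ifitm1 and Ifitm3 lie lowest and Mx1 highest, the signs of Ifit1 and Isg15 flip relative to the dashed line, and all receptor genes lie within 2-fold.

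Cells that held a UMI of any of the 16 leukocyte markers did differ in some members. There were 515 such cells in P and 445 in D, nearly all through Cd68 or Laptm5. In D, Ifit1bl1 stood at 14.1 CPM (10.0 to 19.3) in them and at 4.16 CPM (3.26 to 5.23) in the others, and Ifit3 at 6.86 and 0.741 CPM. In P, Ifit1 stood at 5.62 CPM (3.07 to 9.43) in them and at 1.78 CPM (1.29 to 2.39) in the others. The richest cell of D was among the marker-positive cells of D through 1 Cd68 UMI. That cell alone held 15 of their 19 Ifit3 UMIs and 17 of their 39 Ifit1bl1 UMIs. Of the 545 Cd68 UMIs of P 364 lay in the Sprr3-led cluster, and of the 400 Laptm5 UMIs of D 319 lay in the Reg1-led and 76 in the luminal-like cluster. Ifitm3 was lower in these cells, at 1370 against 1727 CPM in P and at 385 against 502 CPM in D. The 13 markers other than Cd68, Laptm5 and Lyz2 were found in 17 cells of P and 14 of D. Those cells held 1 Ifit1, 2 Bst2 and 1 Irf7 UMI in P and 1 Ifit1bl1 and 2 Irf7 UMIs in D, and no UMI of Ifit3 or Isg15.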

How the data were processed

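Cells from the P and D organoids were captured with 10x Genomics 3′ v3 chemistry, 1 library each. Per the submitters' processing notes, bcl2fastq 2.19.0, Cell Ranger 3.0.2 and GRCm38/mm10 were used. The deposited matrices hold raw UMI counts per gene and barcode, with no normalization by the authors. They held 8194 and 6975 barcodes with 28921755 and 22949953 UMIs. Cells with over 800 genes and at most 12% mitochondrial UMIs were kept. Levels were CPM of summed UMIs with exact Poisson intervals, ratios had exact conditional binomial intervals and shares exact Clopper-Pearson intervals, all at 95%. A call required 2-fold and 100 UMIs over both libraries, and a count of 0 was read as up to 3 counts. Clusters came from Seurat 5.3.0 in R 4.3.3 (2000 variable features, 25 components in P and 21 in D, resolution 0.2). Doublets were treated with Scrublet in scanpy 1.11.5, whose automatic threshold called none of the cells, so that cells with the highest 5% of scores were only left out in an alternative. Calculations were checked on simulated counts.

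Named genes were all members, all ligands, receptors and signalling genes, and in other lists up to 4 genes with the largest log2 ratio among those with 100 UMIs, with exceptions named as such in the text. Members and lists were chosen with earlier results of these data known. One gene of the signalling list is not reported here by name.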

Additional observations from a re-analysis of the deposited data

Results flagged for a closer look

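Barcodes left out by the cell filter, 1376 in P and 2079 in D, also held transcripts of the 9 genes, and are outside the comparisons above. Scaled to 1000000 non-mitochondrial UMIs, the 3 Ifitm genes together reached 1887 (1827 to 1948) in the barcodes P lost to the filter, beside 2348 in kept cells. In D they stood at 350 (325 to 377) in the barcodes left out, beside 794 in kept cells, so that they were lower outside the kept cells in both libraries and higher in P than in D in both. The other 6 genes together reached 22.1 (16 to 29.7) in those of P and at 16.9 (11.8 to 23.5) in those of D, beside 27.6 and 30.02 in kept cells.

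Ifitm1 and Ifitm2 differed between the libraries in how they were spread over cell states, by values whose difference was not tested. Clusters in which the median basal marker was raised (Ctla2a-led and Ccna2-led in P, 2929 cells, and Acta2-led in D, 1318 cells) were set against all other cells of the library. Among those other cells, the Fmo2-led cluster of P was a borderline case, with 3 of 7 basal markers raised and a median log2 value of −0.099. It held the highest levels of Ifitm1 (347 CPM) and Ifitm2 (374 CPM) in P. Both P ratios therefore depend on its placement, and ratios with this cluster on the basal side were not computed. For Ifitm1 the log2 ratio was −0.80 (−0.90 to −0.71) in P and 0.77 (0.49 to 1.05) in D. For Ifitm2 it was −0.083 (−0.15 to −0.02) in P and 0.73 (0.64 to 0.82) in D. Ifitm3 was higher on the basal side in both, by 0.04 in P and 1.11 in D.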

How the results depend on the processing

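No paired analysis was possible because each condition had 1 library. The counts of members called between libraries (2 higher in P and 1 higher in D) stayed within 1.5 times their value under each of 12 settings. Scaling by the median ratio added Ifitm2 to the genes higher in P (3 in all) and turned the signs of Ifit1 and Isg15, which were not called. Over the 10 settings of scaling and cell selection, the log2 ratio ran from −3.28 to −2.65 for Ifitm1, from −2.22 to −1.73 for Ifitm3 and from 1.42 to 1.91 for Ifit1bl1. The alternative without the richest cell of each library was chosen after seeing the data. The number of P members with 2-fold between clusters was 1, but 3 at resolution 0.4, 2 without the cells of high doublet score and 2 without mitochondrial and ribosomal protein genes. For D members it was 4, but 5 at resolution 0.4, 5 without mitochondrial and ribosomal protein genes and 3 without the richest cell of each library. The cause of these changes was not tested. Among pathway genes, 4 were higher in D and 4 in P, which became 2 and 8 after median-ratio scaling, and 8 and 8 with a minimum of 20 UMIs, where 63 genes were tested instead of 49. Depth limits Ifit1, Ifit3, Ifit1bl1, Isg15 and Irf7, each found in under 1% of thinned cells.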
